A study of Mus musculus with 3 samples.

Results

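The subunit genes of the mitochondrial respiratory chain and ATP synthase were examined in immune cells washed from the airspaces of mice after 1 exposure to inhaled ozone. Members were taken by gene symbol (Nduf a, b, c, s and v genes, Sdha to Sdhd, Uqcr, Cox4 to Cox8 and Atp5 genes, and the mt-Nd, mt-Co, mt-Cytb and mt-Atp genes) and had to hold at least 100 UMIs over the 3 libraries. A UMI, or unique molecular identifier, is a tag that marks 1 captured RNA molecule. Of 33696 genes in the files, 101 symbols matched and 95 members remained, 82 of them nuclear genes and 13 encoded by the mitochondrial genome. The nuclear members were 38 of complex I, 4 of complex II, 8 of complex III, 15 of complex IV and 17 of complex V, and the mitochondrial ones 7 of complex I, 1 of complex III, 3 of complex IV and 2 of complex V. Ndufa4 was counted with complex I by its symbol, although its protein is now assigned to complex IV. Ndufa4l2, Ndufb11b, Cox4i2, Cox7b2, Cox8b and Cox8c had under 100 UMIs.

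The mice were wild type C57BL/6J, 12 weeks old, and were exposed for 3 hours to filtered air or to ozone at 1 ppm or 1.5 ppm. Airspace cells were collected 22 to 24 hours later. In every group the left bronchus was tied off and only the right lobes were washed, under 2,2,2-tribromoethanol anaesthesia. Cells of 3 to 4 mice were pooled for each group and made into 1 droplet library, so mouse, exposure session and library preparation cannot be told apart from the exposure. No test between groups was possible, no p-value is given, and every interval printed is a 95% interval that covers counting error only.

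The respiratory chain lies in the inner mitochondrial membrane. Complexes I and II pass electrons from NADH and succinate to ubiquinone, complex III passes them to cytochrome c, and complex IV to oxygen. Complexes I, III and IV pump protons, and complex V uses the returning protons to make ATP. Complex II is built from nuclear genes only, whereas the other complexes combine imported nuclear subunits with a few core subunits made inside the organelle, so that transcripts of both genomes are needed. Alveolar macrophages, the resident phagocytes of the airspace, are known to rely strongly on oxidative metabolism.

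The libraries held 5307, 3233 and 7269 barcodes and 59359742, 42825676 and 95403078 UMIs, in the order filtered air, 1 ppm and 1.5 ppm, which is the order of all values below. Barcodes of more than 10% mitochondrial UMIs were left out. They made up 34.2%, 30.6% and 9.07% of barcodes, and this filter acts on the mitochondrially encoded members themselves. At most 7 kept barcodes were shared by any pair of libraries. Cells were clustered without the members. Alveolar-macrophage-like cells numbered 3315, 2134 and 5645, and their clusters counted 7 to 14 of 14 alveolar macrophage markers such as Marco, Chil3 and Fabp4. Levels are given as CPM, the UMIs of a gene in each 1000000 UMIs of the same cells. Among markers of other cells, the summed level of 8 neutrophil genes was 47.0, 43.2 and 36.5 CPM, of 7 T cell genes 2.61, 1.76 and 1.58 CPM and of 7 airway epithelial genes 52.8, 42.1 and 45.1 CPM. For NK cells Ncr1, Gzma and Nkg7 were at 0 in all libraries. Some lists were higher at 1 ppm, as the nuclear members were. Those of 8 interstitial or monocyte-derived macrophage genes, of which Tmem119 was at 0, summed to 23.3, 44.7 and 29.8 CPM and those of 6 monocyte genes to 7639.5, 9566 and 6261 CPM, and the alveolar macrophage genes themselves to 17185, 19044 and 13543 CPM. The monocyte list holds Chil3, which is also in the alveolar macrophage list, so its sum is not one of monocyte genes alone. Erythroid genes were at 17.8, 0.293 and 40.3 CPM. The part of other cells in the results was not tested.

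Transcripts of the nuclear and the mitochondrial genome differed from air in opposite directions after 1.5 ppm ozone. In alveolar-macrophage-like cells the nuclear members together stood at 12505, 15401 and 16474 CPM, that is 1.247 to 1.254% of all UMIs after filtered air, 1.536 to 1.544% after 1 ppm and 1.645 to 1.650% after 1.5 ppm as the bounds of their intervals. The 13 mitochondrially encoded members took 4.29, 4.10 and 2.55% of all UMIs. The nuclear sum was thus 1.23 times the air value at 1 ppm and 1.32 times at 1.5 ppm, and the mitochondrial sum 0.957 and 0.595 times. For each UMI of a nuclear member there were 3.43, 2.66 and 1.55 UMIs of mitochondrially encoded ones. Per cell, the median nuclear share was 1.247, 1.505 and 1.581% and the 5th to 95th percentile ran from 0.362 to 1.91% after air and from 0.437 to 2.36% after 1.5 ppm, so cells of the libraries overlapped widely. The 1 ppm library differed from air mainly in the nuclear sum, and the 1.5 ppm library in both. Over all deposited barcodes, with no filter on mitochondrial share, the quotient of mitochondrially encoded to nuclear UMIs was 5.90, 4.31 and 1.81.

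By complex, the nuclear genes of complex I took 0.369, 0.452 and 0.503% of UMIs, of complex IV 0.347, 0.427 and 0.474% and of complex V 0.382, 0.475 and 0.499%, highest after 1.5 ppm in each. Complex II took 0.0376, 0.0413 and 0.0423%. Complex III took 0.115, 0.144 and 0.129% and was the 1 nuclear set whose sum was highest after 1 ppm. Among mitochondrially encoded genes, complex I took 0.986, 0.916 and 0.605%, complex III 0.322, 0.311 and 0.158%, complex IV 2.25, 2.14 and 1.33% and complex V 0.729, 0.732 and 0.454%, and each sum was lowest after 1.5 ppm. Single nuclear members spanned a wide range of levels. Those of complex V lay between 102 and 447 CPM after air, with a median of 179, and those of complex I had a median of 90.2 CPM. CPM here counts each captured molecule once and is not divided by gene length.

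**Figure D1:**
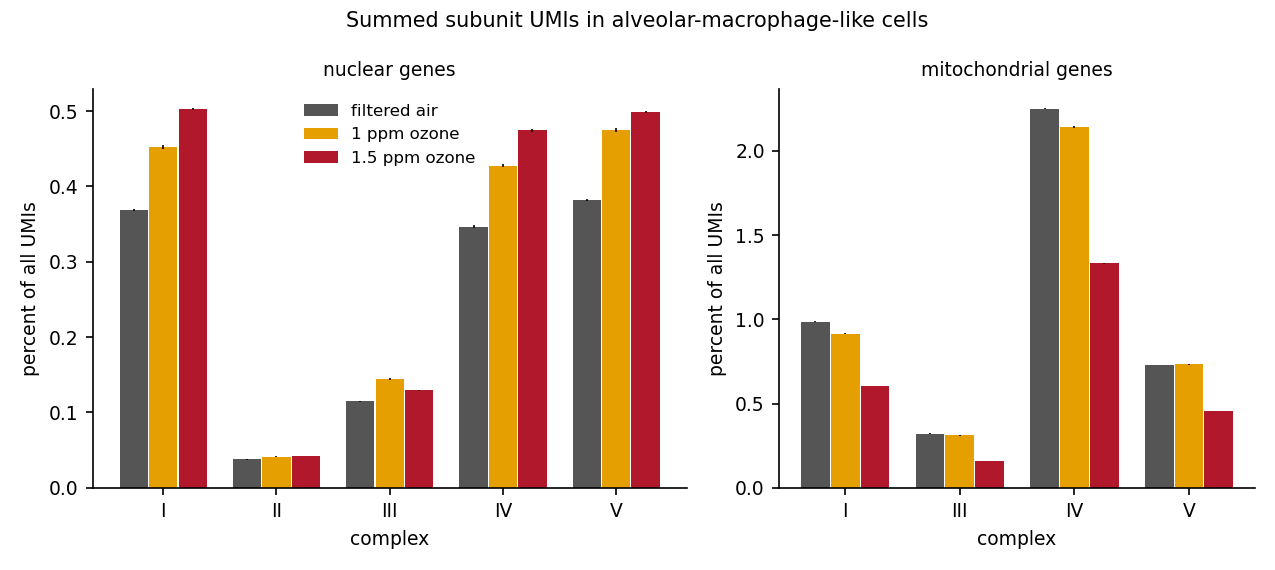
Summed UMIs of the subunit genes of each complex as a percent of all UMIs of the alveolar-macrophage-like cells of a library (left, nuclear genes; right, mitochondrially encoded genes; the vertical scales differ). Bars are 1 library each and error bars are 95% Poisson intervals of the count. Complex I nuclear genes went from 0.369% to 0.503% between air and 1.5 ppm, and complex IV mitochondrial genes from 2.25% to 1.33%.

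The higher nuclear sum was shared by nearly all members. At 1 ppm, 81 of the 81 nuclear members with at least 100 UMIs in these cells lay above their air level, where 41.7% of the 12873 genes of that depth did. Their median log2 ratio of CPM was 0.33, and that of all genes -0.05. Of them 42 were at least 25% higher, against 8.41% of all genes, and 3 at least 1.5-fold, against 2.01%. None was at least 20% lower (the inverse of 25% higher), as 10.9% of all genes were. The interval of the ratio lay above 1 for 76 of the 81. When each gene was set against genes of like transcript length, as 80 of the 81 could be, 9 nuclear members were at least 25% higher at 1 ppm, against 7.70% of all genes so centred, and 19 at 1.5 ppm, against 20.1%. As shares of the 80 members, these counts lie slightly above those of all genes.

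At 1.5 ppm the nuclear members spread further apart. Of the 81, 72 lay above air, against 45.1% of all genes, and the median log2 ratio was 0.31, against -0.04 for all genes. At least 25% higher were 39 members, against 21.7% of all genes, and at least 1.5-fold higher 18, against 11.6%. Only Ndufb4b, with 254 UMIs, was at least 20% lower, against 18.0% of all genes, and it was also past 1.5-fold, against 4.33%. The middle range (lower to upper quartile) of the log2 ratios ran from 0.22 to 0.40 at 1 ppm and from 0.09 to 0.58 at 1.5 ppm. Between the ozone libraries the median was -0.02. 39 of 81 members were higher at 1.5 ppm than at 1 ppm, against 51.4% of all genes, 15 by at least 25%, against 20.5%, and 7 were at least 20% lower, against 12.1%. Set against genes of like transcript length, the median between the ozone libraries was -0.16, and 6 of 80 members were at least 25% higher, against 17.9% of all genes so centred. Over all deposited barcodes that median was 0.070, on the other side of 0.

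**Figure D2:**
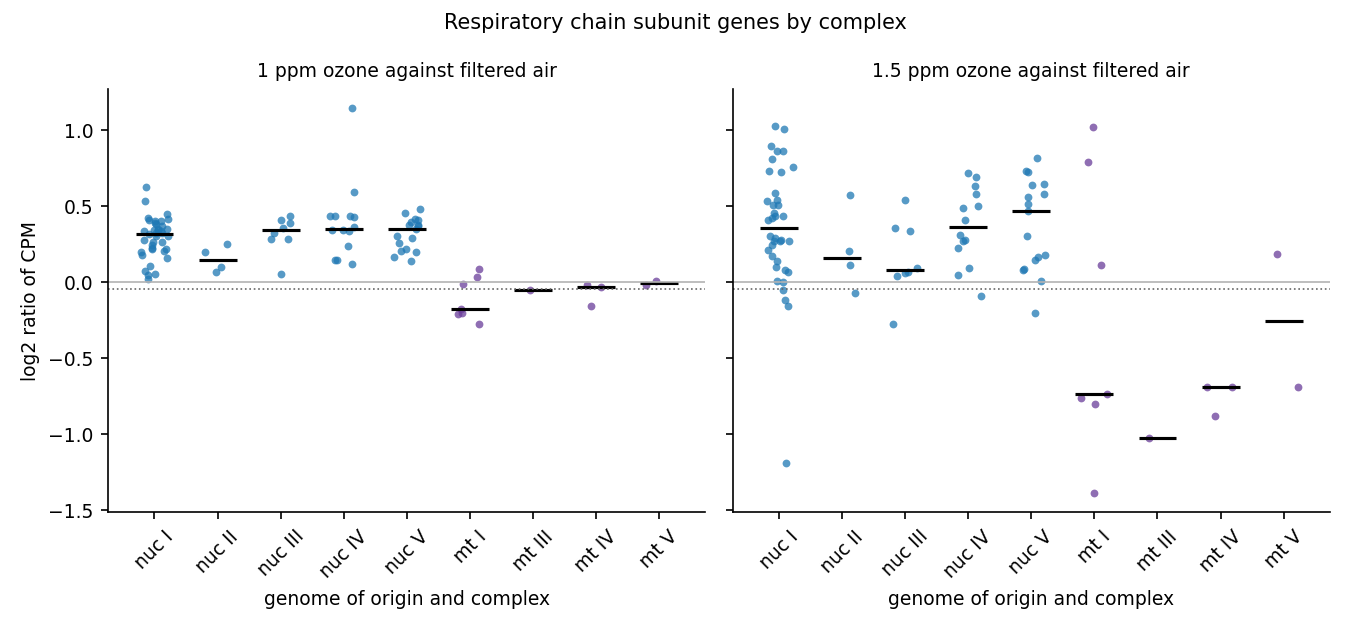
Log2 ratio of CPM of each member against filtered air in alveolar-macrophage-like cells, by genome of origin (nuc, nuclear; mt, mitochondrial) and complex, at 1 ppm (left) and 1.5 ppm (right). Points are genes, black lines medians, and the dotted line the median of all genes. All 81 nuclear points lie above 0 at 1 ppm, and at 1.5 ppm the nuclear points range from -1.19 to 1.02.

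Complex I, NADH dehydrogenase, has a hydrophilic arm that holds the redox centres and a membrane arm that pumps protons. Its 38 nuclear members had a median log2 ratio of 0.32 at 1 ppm and 0.36 at 1.5 ppm, and 38 and 33 of them lay above air. Ndufa4, Ndufb1 and Ndufb9 had the most UMIs of the set. Ndufa4 was at 349, 413 and 507 CPM, Ndufb1 at 243, 292 and 299.9 CPM and Ndufb9, an accessory subunit of the membrane arm, at 139, 178 and 254 CPM. Ndufa4 and Ndufb9 were higher in each ozone library in turn, while Ndufb1 was close in both.

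The 2 highest ratios at 1.5 ppm were those of accessory subunits of the membrane arm. Ndufa8 was at 86.3, 108 and 176 CPM, 2.03 times air (interval 1.97 to 2.11), and 0.32 on the log2 scale at 1 ppm. Ndufb5 was at 107, 135 and 214 CPM, 2.01 times air (interval 1.95 to 2.07). For both, most of the difference from air appeared only at 1.5 ppm. In all 10 of the 38 nuclear complex I genes were at least 1.5-fold higher there, against 11.6% of all genes. The other 8, most of them named after their values were seen, were Ndufb6, Ndufb8, Ndufb9, Ndufb10, Ndufb11, Ndufc2, Ndufs5 and Ndufs7. Ndufs7, which carries the iron-sulphur cluster next to the ubiquinone site, was at 72.2, 93.2 and 134 CPM.

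At 1 ppm the highest ratios among genes of at least 50 CPM were those of 2 accessory subunits. Ndufa11 was at 68.6, 99.5 and 91.2 CPM and Ndufa12 at 57.7, 78.8 and 77.9 CPM, with log2 ratios of 0.54 and 0.45 at 1 ppm and 0.41 and 0.43 at 1.5 ppm. The 2 lowest ratios at 1 ppm among such genes were those of Ndufs1 and Ndufs4. Both belong to the hydrophilic arm, but Ndufs7 of that arm had a log2 ratio of 0.90 at 1.5 ppm. The transcripts of Ndufs1 and Ndufs4, of 2625.5 and 1698 bases, are longer than the nuclear members' median of 737. The part of length in their ratios was not tested. Ndufs1, the largest iron-sulphur subunit, was at 65.1, 66.0 and 58.3 CPM, lowest after 1.5 ppm (log2 ratio -0.16). Ndufs4, an accessory subunit needed for a stable hydrophilic arm, was at 106, 110.0 and 116 CPM. Thus members of 1 complex differed in direction at 1.5 ppm. Ndufb4b, at 1.99, 2.05 and 0.870 CPM, is a near copy of Ndufb4, at 11.6, 17.9 and 15.5 CPM, and reads could be split between them, so both values are uncertain.

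Complex II, succinate dehydrogenase, also serves the citrate cycle, and it had the smallest median of the nuclear sets at 1 ppm, 0.15, and 0.16 at 1.5 ppm. The flavoprotein gene Sdha was at 141, 148 and 135 CPM, so it was lowest after 1.5 ppm. The iron-sulphur subunit gene Sdhb was at 70.5, 80.7 and 105 CPM, 1.49 times air at 1.5 ppm (interval 1.43 to 1.55). The membrane anchors were at 93.9, 101 and 102 CPM for Sdhc and 70.4, 83.8 and 81.2 CPM for Sdhd. Sdhb was the 1 member of the 4 at least 25% above air in either ozone library.

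Complex III, the cytochrome bc1 complex, was the nuclear set whose ratios were lower at 1.5 ppm than at 1 ppm. Its 8 members had a median log2 ratio of 0.34 at 1 ppm and 0.08 at 1.5 ppm, and 7 of 8 were lower at 1.5 ppm than at 1 ppm, with a median of -0.24. The gene with the most UMIs was Uqcrh, the hinge protein, at 285, 347 and 292 CPM. The small subunit genes Uqcrb and Uqcrq were at 174, 234 and 219 and 171, 224 and 219 CPM. The core protein genes Uqcrc1 and Uqcrc2 were at 46.1, 61.3 and 48.1 and 83.1, 86.3 and 68.5 CPM, and Uqcrc2 was 0.825 times air at 1.5 ppm (interval 0.793 to 0.858). Uqcrfs1, the Rieske iron-sulphur protein that takes part in the electron transfer itself, was at 86.1, 105 and 125 CPM. It was the exception in the set, higher at 1.5 ppm than at 1 ppm. The other 2 members, Uqcr10 and Uqcr11, which fall outside the rule for named genes, were at 136, 174 and 142 and 168, 211 and 179 CPM.

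Complex IV, cytochrome c oxidase, held the most abundant nuclear members by UMIs, which are not divided by length. Cox4i1 was at 635, 802 and 1044 CPM, 1.26 times air at 1 ppm (interval 1.24 to 1.28) and 1.64 times at 1.5 ppm (interval 1.62 to 1.67). Cox5a, whose protein pairs with that of Cox4i1 early in assembly, was at 478, 520.2 and 771 CPM. Both had their highest level after 1.5 ppm, but Cox5a differed little from air at 1 ppm, with a log2 ratio of 0.12. Cox8a was at 387, 522 and 514 CPM, close in both ozone libraries.

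The set's other named members ranged less. Cox7b was at 141, 190.2 and 218 CPM, after Cox4i1 and Cox5a the highest log2 ratio at 1.5 ppm. Cox6a1 was at 191, 211 and 204 CPM and Cox7a2l at 241, 267 and 249.6 CPM, both within 0.15 of air on the log2 scale. The median of the 14 members with at least 100 UMIs was 0.35 at 1 ppm and 0.36 at 1.5 ppm. Cox5b-ps, with 238 UMIs, is listed as a pseudogene of Cox5b, so its log2 ratio of 1.14 at 1 ppm is uncertain.

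Complex IV has isoforms that replace its common subunits in particular tissues. In alveolar-macrophage-like cells the common forms prevailed. Cox4i2, the lung and hypoxia form, had 16, 13 and 33 UMIs, against 31592, 30092 and 93609 of Cox4i1. Of the heart and skeletal muscle forms, Cox7a1 had 257, 293 and 561 UMIs and Cox6a2 25, 32 and 12, and Cox8b had 0, 0 and 1. Of the testis forms, Cox7b2 and Cox8c had 0 in every library. Ndufa4l2, a gene known to respond to hypoxia, had 0 in these cells as well, with upper interval bounds of 0.0742, 0.0983 and 0.0411 CPM.

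Cox6b2 was the exception. This gene, known for its expression in testis, had 2109, 2145 and 3565 UMIs, or 42.4, 57.2 and 39.8 CPM, beside 330.4, 419 and 385 CPM of the common form Cox6b1. Over the 3 libraries it was at 44.2 CPM in alveolar-macrophage-like cells and 46.1 CPM, on 26 UMIs, in the unnamed cluster 11. That cluster counted 10 of 14 alveolar macrophage markers. It was left unnamed because its cells were shallow, with a median of 1077 UMIs, and no such marker led it. In the other classes and clusters Cox6b2 was at 10.00 to 26.5 CPM, on 5 to 22 UMIs each. Airway-epithelial-like cells had 16.8 CPM, on 18 UMIs, and migratory-dendritic-cell-like cells 10.00 CPM, on 10 UMIs. In alveolar-macrophage-like cells its level was highest after 1 ppm and after 1.5 ppm near that of air. Reads from an overlapping gene were not tested.

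Cox6a2 was found in a few cells. Alveolar-macrophage-like cells held 25, 32 and 12 of its UMIs in 19, 20 and 12 cells, and airway-epithelial-like cells 12, 1 and 230. In airway-epithelial-like cells 3 of 25 cells held a UMI after air, 1 of 22 after 1 ppm and 15 of 99 after 1.5 ppm (15.2%, exact binomial interval 8.74 to 23.8%). In alveolar-macrophage-like cells of the 1.5 ppm library the share was 0.213%, at a median of 13099 UMIs per cell against 4347. Of the 230 Cox6a2 UMIs in epithelial-like cells after 1.5 ppm, 3 cells held 203 and 1 of them 145, so the level there rests on few cells.

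Complex V, ATP synthase, had the highest median log2 ratio of the nuclear sets at 1.5 ppm, 0.47, after 0.35 at 1 ppm. Among its highest ratios were those of the membrane rotor. The 3 genes Atp5g1, Atp5g2 and Atp5g3 encode the same mature c subunit of the proton-driven ring, and together they were at 767, 958 and 1259 CPM. Atp5g1 was at 177, 247 and 311 CPM, 1.76 times air at 1.5 ppm (interval 1.72 to 1.80). Atp5g2 was at 331, 409 and 517 CPM and Atp5g3 at 259, 302 and 431 CPM. The share of Atp5g1 in their sum was 23.1, 25.8 and 24.7%, of Atp5g2 43.1, 42.7 and 41.0% and of Atp5g3 33.8, 31.5 and 34.2%. All 3 were higher at 1.5 ppm than at 1 ppm, and their proportions differed by under 3 percentage points between libraries.

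The catalytic head differed. The beta subunit gene Atp5b was at 263, 302 and 264 CPM, so after 1.5 ppm it was back at its air level, and the alpha subunit gene Atp5a1 was at 305, 349.9 and 323 CPM. Atp5e, the epsilon subunit, was at 391, 521 and 431 CPM and Atp5l, a small membrane subunit, at 447, 546 and 500.3 CPM, both highest after 1 ppm. Of the stalk, the coupling factor gene Atp5j was at 154, 210.3 and 241 CPM and Atp5pb, the b subunit, at 226, 248 and 323 CPM. Atp5k, at 102, 114 and 115 CPM, differed little between the ozone libraries. Atp5mpl, a small membrane subunit, was at 171, 217 and 148 CPM. It was above air at 1 ppm (log2 ratio 0.35) and below it at 1.5 ppm (-0.20, ratio interval 0.846 to 0.894).

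Because all 81 measured nuclear members lay above air at 1 ppm, their promoters were read. RefSeq sequences (build GRCm38.p6, 250 bases before to 50 after the start) matched 68 of the 82 nuclear members by symbol. The core GCGCATGC bound by NRF1, an activator known for its respiratory chain targets, was searched on both strands, and so were CCGGAAG (ETS factors), AAGATGGCG (YY1) and TCAAGGTCA (oestrogen-related receptors). The NRF1 core was in 10 of 68 members (14.7%), 2.80% of all genes and 5.65% of genes with at least 100 UMIs. The ETS core was in 16 of 68 members (23.5%), 9.12% of all genes and 19.6% of genes with at least 100 UMIs. The YY1 motif was in 6 of 68 members (8.82%), 1.49% of all genes and 3.45% of genes with at least 100 UMIs, and the oestrogen-related receptor motif in 2 of 68 members (2.94%), 0.407% of all genes and 0.248% of genes with at least 100 UMIs. With and without the motif, the median log2 ratios at 1 ppm were 0.30 and 0.34 for the NRF1 core, 0.33 and 0.32 for the ETS core and 0.36 and 0.32 for the YY1 motif. At 1.5 ppm they were 0.17 and 0.42, 0.26 and 0.43 and 0.24 and 0.41. At 1.5 ppm those with it had the lower median for each of the 3. A match is of letters only.

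Below are the 100 bases before the start of the 6 members whose NRF1 core lies wholly within them, 5′ to 3′ along the gene, with the core in capitals. A run of 10 capitals is a palindrome in which the core is read on both strands at an overlap. They show how the core's distance from the start varied, from 8 bases in Ndufa8 to 83 in Ndufa6, counted from its first base.
Ndufa11, chr17:56717662-56717761, plus strand: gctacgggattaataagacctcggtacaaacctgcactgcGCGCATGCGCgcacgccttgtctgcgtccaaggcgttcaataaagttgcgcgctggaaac
Ndufa6, chr15:82354292-82354391, minus strand: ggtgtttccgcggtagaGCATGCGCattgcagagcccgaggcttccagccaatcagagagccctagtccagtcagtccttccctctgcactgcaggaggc
Ndufa8, chr2:36049339-36049438, minus strand: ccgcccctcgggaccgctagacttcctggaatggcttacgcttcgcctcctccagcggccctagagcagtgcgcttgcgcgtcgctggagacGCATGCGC
Sdhb, chr4:140961171-140961270, plus strand: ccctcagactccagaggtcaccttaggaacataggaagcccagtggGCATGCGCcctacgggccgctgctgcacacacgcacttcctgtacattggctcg
Atp5g2, chr15:102671048-102671147, minus strand: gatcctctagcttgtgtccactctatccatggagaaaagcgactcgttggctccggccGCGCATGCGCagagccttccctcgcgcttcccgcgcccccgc
Atp5k, chr5:108434400-108434499, minus strand: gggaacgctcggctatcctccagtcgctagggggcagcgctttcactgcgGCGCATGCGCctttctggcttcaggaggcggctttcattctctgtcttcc

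The mitochondrial genome is transcribed from both strands as long precursors that are cut into single transcripts, so its genes are not separate transcription units. At 1 ppm the 13 members were near air, with a median log2 ratio of -0.03. None was at least 25% higher or 20% lower, as 8.41% and 10.9% of all genes were. At 1.5 ppm the median was -0.69, and 9 of 13 were at least 1.5-fold lower, beside 4.33% of all genes. The other 4 were not lower than air. They were mt-Nd4l, mt-Nd5, mt-Nd6 and mt-Atp8, the 4 least abundant of the 13 after air.

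Of the complex IV genes, which encode the catalytic core, mt-Co1 was at 8270.4, 7431 and 5136 CPM, mt-Co2 at 6076, 5949.6 and 3774 CPM and mt-Co3 at 8154, 8034 and 4425 CPM. At 1.5 ppm their ratios to air were 0.621 (interval 0.618 to 0.624), 0.621 and 0.543. The cytochrome b gene of complex III, mt-Cytb, was at 3221, 3113 and 1583 CPM, 0.491 times air at 1.5 ppm (interval 0.488 to 0.495). The proton channel gene of complex V, mt-Atp6, was at 7221, 7259.7 and 4471 CPM, and mt-Atp8, which overlaps it, at 65.0, 64.1 and 73.8 CPM. So these abundant transcripts were lower together, at between 0.491 and 0.621 times air.

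The complex I genes encode proton-pumping membrane subunits and went different ways. mt-Nd1 was at 3170.0, 3142 and 1819 CPM, mt-Nd2 at 1742, 1783 and 1026 CPM and mt-Nd4 at 3294, 2726 and 1980.3 CPM. mt-Nd3 was at 1027, 892 and 392 CPM, 0.382 times air at 1.5 ppm (interval 0.377 to 0.387), the lowest ratio of the 13. In contrast mt-Nd5 was at 393, 417 and 425 CPM. mt-Nd4l was at 198, 171 and 343 CPM, 1.73 times air (interval 1.69 to 1.77), and mt-Nd6, the 1 protein gene on the other strand, at 32.0, 28.3 and 65.0 CPM, 2.03 times air (interval 1.92 to 2.15). mt-Nd4l shares a transcript and overlaps with mt-Nd4, as mt-Atp8 does with mt-Atp6, so the split of UMIs between the genes of each pair is uncertain.

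Set against their own sum, the less abundant of these genes took other shares in the 1.5 ppm library, and a share can be read apart from the amount of mitochondrial RNA in a cell. mt-Nd4l made up 0.461, 0.417 and 1.34% of mitochondrially encoded UMIs, mt-Nd6 0.0746, 0.0690 and 0.255%, mt-Nd5 0.917, 1.02 and 1.67% and mt-Atp8 0.152, 0.156 and 0.289%. mt-Nd3 made up 2.39, 2.17 and 1.54% and mt-Cytb 7.51, 7.59 and 6.20%. In these 6 genes and mt-Co3, 7 of 13, the air and 1 ppm libraries lay closer to each other than either to the 1.5 ppm library. In the other 6 they did not. mt-Nd4 made up 7.68, 6.65 and 7.76% and was lowest at 1 ppm, mt-Co1 made up 19.3, 18.1 and 20.1%, mt-Nd2 4.06, 4.35 and 4.02% and mt-Atp6 16.8, 17.7 and 17.5%. In 6 bands of mitochondrial share between 1 and 10%, the share of mt-Nd4l at 1.5 ppm was 2.62 to 3.06 times that after air, that of mt-Nd6 1.52 to 6.13 times, and that of mt-Nd3 0.495 to 0.697 times. At 1 ppm the quotients for mt-Nd4l were 0.878 to 0.929.

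**Figure D3:**
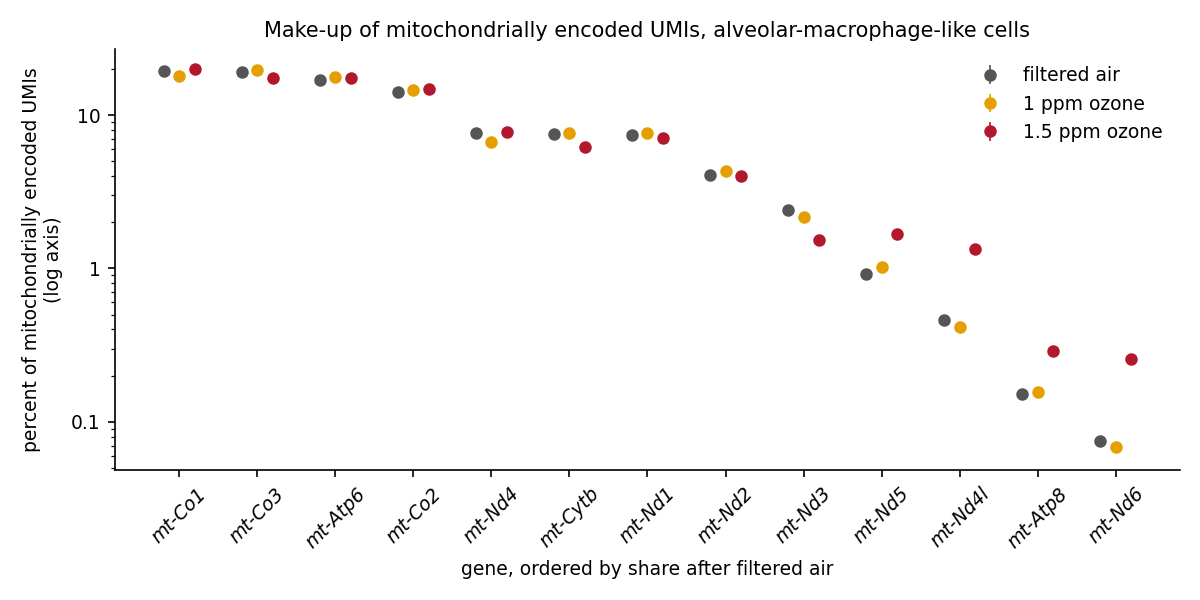
Each mitochondrially encoded gene as a percent of the summed UMIs of the 13 genes in alveolar-macrophage-like cells, on a log axis, 1 point per library with a 95% binomial interval that is mostly smaller than the point. At 1.5 ppm mt-Nd4l stands at 1.34% against 0.461% after air and mt-Nd3 at 1.54% against 2.39%, while for mt-Nd4 the 1 ppm point is the lowest.

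A higher share of mt-Nd4l also appeared in other cells of the 1.5 ppm library. In interstitial- or monocyte-derived-macrophage-like cells mt-Nd4l made up 0.401% (interval 0.317 to 0.501%) after air, 0.306% (interval 0.212 to 0.428%) after 1 ppm and 1.32% (interval 1.16 to 1.49%) after 1.5 ppm. In migratory-dendritic-cell-like cells it made up 0.477% (interval 0.329 to 0.669%), 0.183% (interval 0.0792 to 0.361%) and 1.19% (interval 0.988 to 1.42%). In airway-epithelial-like cells the values were 0.358% (interval 0.131 to 0.777%), 1.16% (interval 0.638 to 1.94%) and 2.18% (interval 1.99 to 2.39%), where the 1 ppm value stands on 14 UMIs. Cluster 17, an unnamed cluster with all 7 T cell markers, gave 0.438% (interval 0.240 to 0.734%) after air and 1.35% (interval 1.08 to 1.66%) after 1.5 ppm. Neutrophil-like cells after 1.5 ppm gave 1.01% (interval 0.638 to 1.50%). In the barcodes left out for over 10% mitochondrial UMIs, mt-Nd4l made up 0.369, 0.327 and 1.36%. Each cell class of the 1.5 ppm library with a value here was thus above 1% and each air value under that. Since every class shared its library, exposure and library preparation cannot be told apart for this share. In each class or cluster here with values after air and 1.5 ppm, mt-Nd5, mt-Nd6 and mt-Atp8 also had larger shares at 1.5 ppm. There mt-Co3 and mt-Cytb had smaller ones, though in small classes some intervals overlapped. In airway-epithelial-like cells mt-Nd5 made up 1.13% after air and mt-Cytb 11.9%. Exposure and library preparation cannot be told apart for these shares either. Of these genes mt-Nd3 did not follow in every class. The share of mt-Nd3, lower at 1.5 ppm than after air in alveolar-macrophage-like cells, was 1.85% (interval 1.26 to 2.61%) after air and 1.92% (interval 1.74 to 2.12%) after 1.5 ppm in airway-epithelial-like cells, and 2.61% (interval 1.89 to 3.50%) and 2.97% (interval 2.66 to 3.30%) in the unnamed cluster 11. At 1.5 ppm airway-epithelial-like cells also had larger shares than alveolar-macrophage-like cells of mt-Cytb, 9.05% against 6.20%, and of mt-Nd5, 4.04% against 1.67%.

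The nuclear members also varied with the mitochondrial share of a barcode. As a percent of UMIs from nuclear genes they made up 1.28, 1.49 and 1.73% in barcodes of 2 to 3% mitochondrial UMIs and 1.34, 1.67 and 1.57% in those of 3 to 4%. At 4 to 5% the values were 1.37, 1.69 and 1.29%, and the 1.5 ppm library was then below air. In barcodes of 10 to 20% they were 0.472, 0.603 and 0.567%. The 1 ppm library lay above air in each band from 1%, and below it in cells of less, whereas the 1.5 ppm library lay above it below 4%, below it from 4 to 10% and above it again from 10%. The bands hold different parts of each library. The band of 4 to 5% held 852 of the air barcodes and 201 of the 1.5 ppm barcodes, and that of 1 to 2% 95 and 1985.

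**Figure D4:**
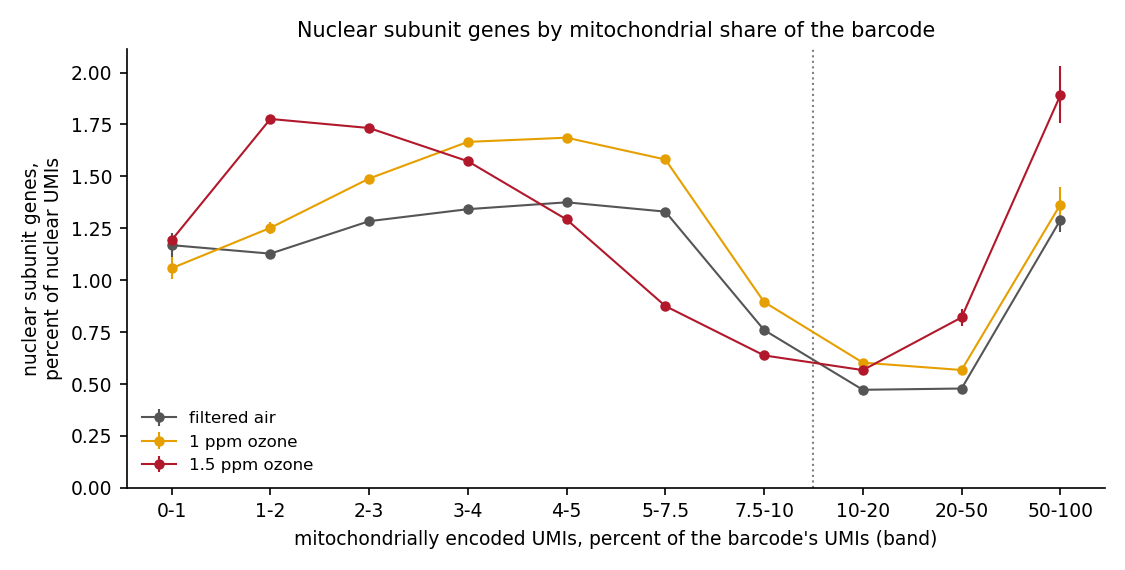
Nuclear subunit genes as a percent of UMIs from nuclear genes, by the mitochondrial share of the barcode, in all deposited barcodes of at least 500 UMIs and 300 genes. Points are libraries with 95% Poisson intervals, and the dotted line marks the 10% limit of kept cells. In the band of 10 to 20% all libraries lie between 0.472% and 0.603%, and in that of 2 to 3% between 1.28% and 1.73%.

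Within the clusters of alveolar-macrophage-like cells the same directions held. In each of 12 clusters with at least 50 cells in both libraries, the nuclear members took a larger share of UMIs at 1 ppm than after air, by 1.06 to 1.33 times. At 1.5 ppm they did so in 13 of 13, by 1.05 to 1.34 times. The mitochondrially encoded share at 1.5 ppm was 0.489 to 0.795 times that of air, lower in 13 of 13 clusters. The cluster led by Mt2 and Mt1, which encode metallothioneins, had 1.42, 1.79 and 1.90% nuclear members. That led by the S phase genes Hells and Dtl had 1.31, 1.65 and 1.72%, and that led by Il1b and the sterol synthesis gene Idi1 1.59, 1.68 and 1.72%. A cluster led by Gm27008, with Malat1 among its leading genes, had 0.354, 0.425 and 0.392% nuclear and 7.70, 7.08 and 6.12% mitochondrially encoded UMIs. Its median was 6564 UMIs per cell. A smaller cluster led by Sdk1 had like values at 1.5 ppm, 0.401% nuclear and 7.16% mitochondrially encoded UMIs, on 55 cells.

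Cells with at least 3 UMIs of G2 and M phase genes were more frequent in the 1.5 ppm library. They made up 28.7, 29.1 and 39.0% of alveolar-macrophage-like cells. In them the nuclear members took 1.28, 1.62 and 1.73% of UMIs, and in the remaining cells 1.23, 1.49 and 1.55%, so the order of the libraries was the same without them. The mitochondrially encoded members took 4.16, 4.04 and 2.57% and 4.36, 4.14 and 2.53%. With each cell thinned to 5000 UMIs, leaving out 59, 32 and 300 shallower cells, the nuclear members took 1.24, 1.50 and 1.60%.

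Cell classes differed in both genomes' transcripts, and were compared within the 1.5 ppm library, which held most cells of the smaller classes. Alveolar-macrophage-like cells had 1.65% nuclear and 2.55% mitochondrially encoded UMIs. Neutrophil-like cells, a cell type known to rely on glycolysis, had 0.991% and 0.972%. Migratory-dendritic-cell-like cells had 1.12% and 1.94%. Interstitial- or monocyte-derived-macrophage-like cells had 1.33% and 1.89%, and airway-epithelial-like cells 1.34% and 2.18%. An unnamed cluster led by Ccl4, Ccl3 and Thbs1, with all but 1 of its 250 cells in this library, had 0.938% and 0.936%, near the neutrophil-like values. These shares are of summed UMIs. The median mitochondrially encoded share per cell was 0.125% in neutrophil-like cells and 0.120% in the Ccl4-led cluster. Most cells there thus lay below the summed share. In airway-epithelial-like cells that median was 1.254%, and in alveolar-macrophage-like cells 2.31%. The median nuclear share per cell was 0.992% in neutrophil-like cells and 0.748% in the Ccl4-led cluster. It was 1.542% in airway-epithelial-like and 1.581% in alveolar-macrophage-like cells, so these 2 lay close by that measure. Median depth was 2302 UMIs in neutrophil-like and 13099 in alveolar-macrophage-like cells. These are descriptions of clusters in 1 library.

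Most nuclear members have short transcripts, and short transcripts as a group were higher in both ozone libraries. The median transcript length was 737 bases for the members and 2501 for all genes. Among genes other than members in the shortest decile, up to 881 bases, the median log2 ratio was 0.13 at 1 ppm and 0.39 at 1.5 ppm, while in the longest decile it was -0.16 and -0.17. The 51 nuclear members of the shortest decile had medians of 0.35 and 0.34. At 1 ppm the members thus lay above other short genes, and at 1.5 ppm they did not in this decile. In the second decile the members' medians were 0.28 and 0.46, and those of other genes 0.10 and 0.21. After centring each gene on its decile, the nuclear median was 0.20 at 1 ppm and 0.07 at 1.5 ppm. The part of transcript length in the results was not tested.

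**Figure D5:**
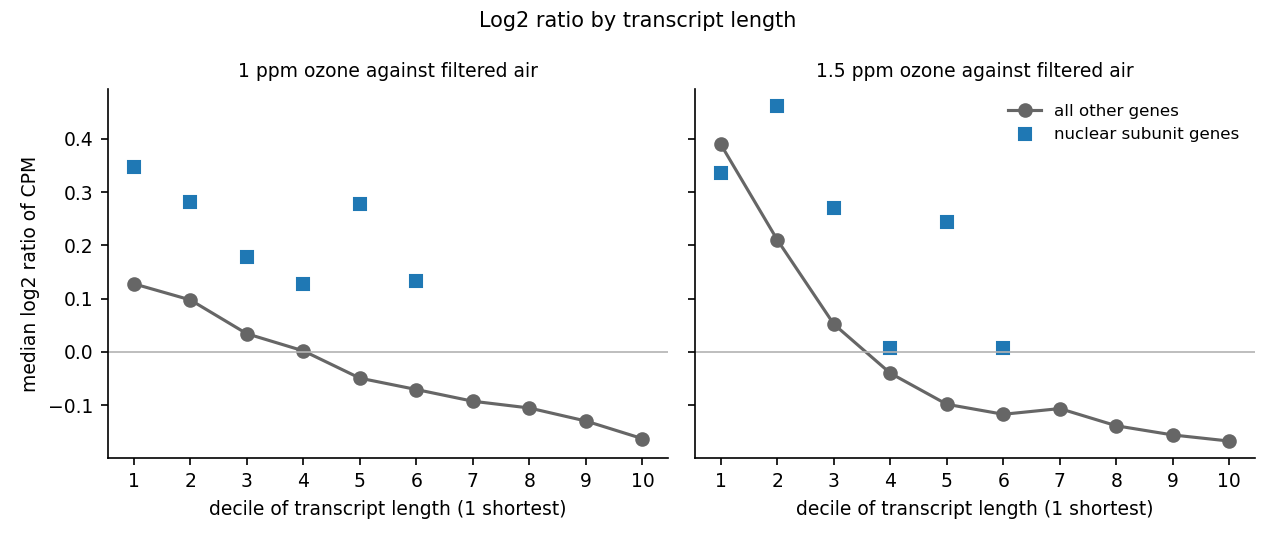
Median log2 ratio of CPM against filtered air by decile of transcript length, for all genes other than members (circles) and nuclear subunit genes (squares, in the 6 deciles that hold any), at 1 ppm (left) and 1.5 ppm (right). In the shortest decile the squares stand at 0.35 and 0.34 and the circles at 0.13 and 0.39. Deciles 3 to 6 hold 1 to 8 members each.

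Other genes of the pathway were followed in lists, in the same cells. Cytochrome c, which carries electrons from complex III to complex IV, is encoded by Cycs, at 94.9, 115 and 159.9 CPM, and Cyc1 encodes cytochrome c1 of complex III, at 44.8, 58.5 and 58.7 CPM. Both were above air in each ozone library. Of the mitochondrial ribosomal protein genes, which serve the synthesis of the 13 mitochondrially encoded proteins, 12 of 78 were at least 25% higher at 1 ppm and 53 of 78 at 1.5 ppm, with medians of 0.21 at 1 ppm and 0.49 at 1.5 ppm. Of the protein import genes 3 of 23 and 12 of 23 were past that fold, with medians of 0.17 at 1 ppm and 0.41 at 1.5 ppm. Of the assembly factors, which help to build the complexes, 5 of 50 and 17 of 50 were, with medians of 0.12 at 1 ppm and 0.17 at 1.5 ppm. Of the adenine nucleotide and phosphate carriers 0 of 7 and 4 of 7 were, with medians of 0.18 at 1 ppm and 0.37 at 1.5 ppm. The shares over all genes are those given above for each fold and library.

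By their medians, the lists for mitochondrial genome expression and for regulators of biogenesis were not higher along with the subunits. No list, here or in the paragraph above, was set against genes of like transcript length. The part of length in the differences between lists was not tested. Of 30 genes for expression of the mitochondrial genome, 2 were at least 25% higher at 1 ppm and 3 at 1.5 ppm, and 2 and 2 lower, with medians of -0.04 at 1 ppm and 0.02 at 1.5 ppm. Tfam, which packages and transcribes mitochondrial DNA, was at 20.7, 19.6 and 25.4 CPM and the mitochondrial RNA polymerase gene Polrmt at 4.34, 4.93 and 4.32 CPM. Slirp, with the list's highest ratio at 1 ppm, was at 30.9, 39.8 and 36.7 CPM. Ssbp1, with its highest at 1.5 ppm, was at 34.8, 40.3 and 63.9 CPM. Of 10 measured regulators of mitochondrial biogenesis none was that much higher, and 1 and 3 were lower, with medians of -0.15 at 1 ppm and -0.14 at 1.5 ppm. Nrf1, the factor whose motif was searched, was at 119, 108 and 93.2 CPM, the coactivator gene Ppargc1b at 45.7, 56.5 and 40.3 CPM and Esrra, an oestrogen-related receptor, at 50.3, 45.2 and 34.5 CPM. Of 14 citrate cycle genes, which are not regulators, 0 and 1 were at least 25% higher, with medians of 0.09 at 1 ppm and 0.12 at 1.5 ppm. In each ozone library 9 of the 14 lay above air, against 41.7% and 45.1% of all genes. The citrate synthase gene Cs was at 98.8, 98.3 and 83.8 CPM.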

How the data were processed

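Airspace immune cells of 3 pools of mice, 1 library each, were sequenced as single cells with a droplet method that reads the 3′ end of transcripts, per the labels' protocols. Each deposited matrix holds raw counts, 1 whole number of UMIs for every gene in every barcode. Cell Ranger 8.0.0 made them, per the file headers, and the submitters' processing notes name the build GRCm39 (mm39). Counting of introns: not given in the sources used here. Transcript lengths came from an annotation of GRCm38, so no gene coordinates of the data's build are printed.

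Barcodes with at least 300 genes, 500 UMIs and at most 10% mitochondrial UMIs were kept. They were scaled to 10000 UMIs, log transformed, reduced to 30 principal components of 2000 variable genes without the members, and clustered on 15 neighbours by the Leiden method at resolution 1.0 (scanpy 1.11.5, leidenalg 0.10.2, igraph 0.11.9, Python 3.11.15). Names ending in "-like" rest on markers, at least 3 of which had to be found in at least 25% of a cluster's cells. No doublet caller was run. UMIs of alveolar-macrophage-like cells were summed per library and given as CPM. A log2 ratio adds 1 UMI to each sum. Levels carry exact Poisson and ratios exact conditional 95% intervals (scipy 1.17.1), and the ratios were checked on simulated counts. Members and gene lists were chosen with earlier results of these data known. Named are all mitochondrially encoded genes, the 4 Sdh genes, the isoforms and, per other complex, the 3 with most UMIs and the 2 highest and 2 lowest ratios per ozone library among genes of at least 50 CPM; further names were chosen after their values were seen, and an item that the rule names is not reported here. Alternatives changed the cells counted, the mitochondrial limit, the scaling, the depth and the count minimum.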

Additional observations from a re-analysis of the deposited data

How the results depend on the processing

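Values here are median log2 ratios, in the order of 1 ppm against air, 1.5 ppm against air and 1.5 ppm against 1 ppm where 3 are given. The nuclear medians against air stayed above 0 under every alternative run. Centred on genes of like transcript length they were 0.20, 0.066 and -0.16, and the counts of nuclear members at least 25% higher were 9, 19 and 6 of 80, where 7.70%, 20.1% and 17.9% of all genes so centred were. The nuclear median at 1.5 ppm against air was 0.42 over all deposited barcodes, 0.24 without cells of 3 or more G2 and M phase UMIs, 0.25 as a mean of each cell's CPM and 0.35 centred on the median of all genes. Between the ozone libraries it turned to 0.070 over all deposited barcodes.

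The mitochondrially encoded median at 1 ppm was near 0 and its sign turned with the setting. It was 0.050 at a limit of 5% mitochondrial UMIs, 0.018 centred on the median of all genes and 0.045 in cells of 2 to 4%, an alternative added after the data were seen. It was -0.080 over all deposited barcodes, -0.054 without cells of many G2 and M phase UMIs, -0.060 as a mean of each cell's CPM, -0.16 centred by length and -0.051 thinned to 5000 UMIs. The count of members at least 20% lower there was 1 over all deposited barcodes and 2 centred by length. At 1.5 ppm it stayed below 0 in all settings, against air and against 1 ppm. The values were -0.70 and -0.67 for kept barcodes of any class, -1.17 and -1.04 over all deposited barcodes, -0.55 and -0.60 at a limit of 5%, -0.74 and -0.69 without cells of many G2 and M phase UMIs, -0.67 and -0.61 as a mean of each cell's CPM, -0.72 and -0.68 per nuclear UMI, -0.98 and -0.91 centred by length, -0.73 and -0.68 thinned, and -0.25 and -0.33 in cells of 2 to 4%. Centred on the median of all genes it was -0.65 against air. In cells of 2 to 4%, 4 of 13 were at least 20% lower than air, a band that itself fixes most of the sum. The cause of the other differences was not tested. With 1 pooled library per group, depth limits single values little, and differences between mice were not measured.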
